A study of Neurospora crassa with 3 samples.

Results

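The gh61 genes of Neurospora crassa, a filamentous fungus, encode lytic polysaccharide monooxygenases, and 8 of them, chosen by locus tag, were followed among the 9730 genes of the deposited count tables. They are gh61-1 (NCU02240), gh61-2 (NCU07760), gh61-3 (NCU02916), gh61-4 (NCU01050), gh61-5 (NCU08760), gh61-6 (NCU03328), gh61-7 (NCU00836) and NCU07898, here called gh61-13. The NC12 reference table gives a gh61 symbol to 7 of the 8 and none to NCU07898. Poly-A RNA came from mycelia of germinated conidia, cultured for 18 h at 32 °C in shaken Vogel's liquid medium, with 2 stranded libraries for each of 3 genotypes. The genotype labelled set-2 H3G34R joins an arginine in place of a glycine of histone H3 to a described deletion of set-2, a histone H3 lysine methyltransferase gene, and both of its libraries came from strain N6777. The genotype labelled set-2 ash1(Y888F) carries a changed residue in ASH1, a second histone H3 lysine methyltransferase, with the same described deletion, in strains N6266 and N6267. The genotype labelled H3G34R carries the histone change alone, in strains N5247 and N5248. The comparisons below ask how the genotypes labelled set-2 differ from H3G34R and from each other.

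Lytic polysaccharide monooxygenases are secreted copper enzymes that break cellulose chains by oxidation. They take electrons from partners such as cellobiose dehydrogenase, and the cuts they make open crystalline cellulose to the hydrolytic cellulases. In Neurospora crassa their genes are known to be induced on plant cell wall material by the transcription factors CLR-1 and CLR-2 and held back by CRE-1 when preferred sugars are present. Members differ in which carbon of the glucose unit they oxidise.

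Sense reads in genes numbered 7.52 to 9.83 mega-reads (M) per library. The 8 gh61 genes together held 704 and 549 of these reads in the set-2 H3G34R libraries, 749 and 577 in the set-2 ash1(Y888F) libraries and 461 and 307 in the H3G34R libraries, so each gene was measured from few reads. The gene set-2 (NCU00269) held 299 and 269 sense reads in the set-2 H3G34R libraries and 171 and 123 in the set-2 ash1(Y888F) libraries, against 322 and 252 in H3G34R. Reads of a gene described as deleted go against that description, so groups carry their label names here and every direction below rests on those labels. The hyphal gene hex-1, a Woronin body gene, was at 3122 to 5488 CPM (counts per M reads of the effective library size) in all 6 libraries. It was higher than in H3G34R by a log2 value of 0.53 in set-2 H3G34R (edgeR adjusted p = 0.0197) and of 0.66 in set-2 ash1(Y888F) (edgeR adjusted p = 0.0107), while the second hyphal gene, so, passed in no comparison. The summed level of 7 genes that mark conidia and aerial hyphae was 619 and 1298 CPM in set-2 H3G34R, 269 and 353 CPM in set-2 ash1(Y888F) and 174 and 239 CPM in H3G34R, and none of the 7 was at 0 in any library. In set-2 H3G34R that sum rested largely on few genes, with eas (NCU08457) at 164 and 658 CPM and con-8 (NCU09235) at 239 and 328 CPM. Against H3G34R, 5 of these 7 conidial genes were higher and 1 lower in set-2 H3G34R, beside 61.7% of all tested genes called. In set-2 ash1(Y888F) 1 was higher and 2 lower than in H3G34R, beside 51.8%. Between the set-2 genotypes 3 were higher and none lower in set-2 H3G34R, beside 38.1%. The gene con-13 (NCU07324), lower in both comparisons with H3G34R, entered the fit through the H3G34R libraries only. It had 3 and 5 sense reads in set-2 H3G34R and 2 and 1 in set-2 ash1(Y888F), against 19 and 20 in H3G34R. Its calls as lower therefore add little to these reads. The part of these hyphal and conidial markers in the gh61 differences was not tested.

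Of the 8 gh61 genes, gh61-5 and gh61-6 were higher in both set-2 genotypes than in H3G34R, and gh61-4 was lower in both. The gene gh61-2 was lower in set-2 H3G34R and higher in set-2 ash1(Y888F) than in H3G34R, gh61-13 was lower in set-2 H3G34R than in either other genotype, and gh61-3 passed the test between the set-2 genotypes alone. The genes gh61-1 and gh61-7 passed it in no comparison. All 8 passed the filter on low counts, gh61-4 through the H3G34R libraries only. In bulk RNA, fewer cells that use a gene and less RNA of it per cell cannot be told apart.

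**Figure D1:**
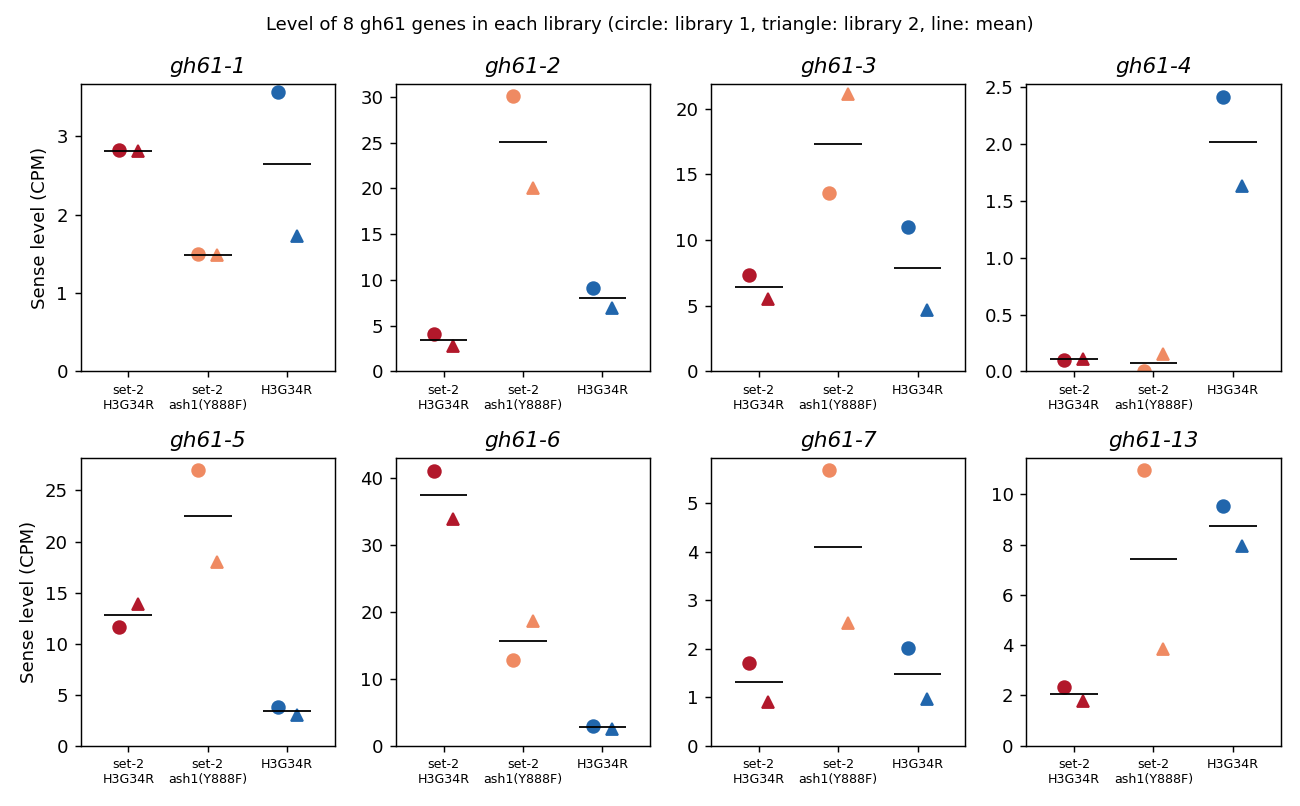
Sense level of each gh61 gene in CPM (linear axis from 0) for the 2 libraries of set-2 H3G34R, set-2 ash1(Y888F) and H3G34R; circles are library 1, triangles library 2 and lines the mean of 2. The gh61-6 libraries of set-2 H3G34R sit at 41.0 and 33.8 CPM, above those of both other genotypes, and gh61-4 is near 0 in both set-2 genotypes.

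The enzymes of gh61-5 and gh61-6 are known to oxidise the C1 carbon. For gh61-6 the levels were 41.0 and 33.8 CPM in set-2 H3G34R, 12.7 and 18.6 CPM in set-2 ash1(Y888F), and 2.99 and 2.49 CPM in H3G34R. The libraries of the 3 genotypes did not overlap, and set-2 H3G34R was highest. Means were 37.4 ± 5.09, 15.7 ± 4.12 and 2.74 ± 0.354 CPM in that order (SD, n = 2 each). Against H3G34R, gh61-6 was higher by a log2 value of 3.77 in set-2 H3G34R (SE 0.262, edgeR adjusted p = 9.97e-05) and by 2.51 in set-2 ash1(Y888F) (SE 0.269, edgeR adjusted p = 5.57e-04). Between the set-2 genotypes it was 2.39-fold higher in set-2 H3G34R, a log2 value of 1.26 (SE 0.224, edgeR adjusted p = 0.00666). Without set-2 H3G34R replicate 1 that last value was 1.10 (edgeR adjusted p = 0.0541), while the calls against H3G34R held without any single library.

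For gh61-5 the levels were 11.6 and 13.9 CPM in set-2 H3G34R, 27.0 and 18.0 CPM in set-2 ash1(Y888F), and 3.76 and 3.06 CPM in H3G34R. Here too the genotypes did not overlap, but set-2 ash1(Y888F) was highest. The differences from H3G34R were log2 values of 1.90 for set-2 H3G34R (SE 0.279, edgeR adjusted p = 0.00131) and 2.72 in set-2 ash1(Y888F) (SE 0.277, edgeR adjusted p = 4.69e-04). Both of these calls held without any single library. Between the set-2 genotypes the difference was −0.82, lower in set-2 H3G34R (SE 0.246, edgeR adjusted p = 0.0381). That call was lost without set-2 H3G34R replicate 1 (adjusted p = 0.182) or 2 (0.107), set-2 ash1(Y888F) replicate 1 (0.157), or H3G34R replicate 1 (0.0658) or 2 (0.0658), and with only the 4 libraries compared (0.0597).

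The order of the set-2 genotypes was therefore opposite for these genes, with gh61-6 higher and gh61-5 lower in set-2 H3G34R than in set-2 ash1(Y888F). Both calls between the set-2 genotypes were lost when certain single libraries were left out, as given above. By a rule of highest Pearson correlation of log2(CPM + 1) over the 6 libraries, the genes most like gh61-6 were erg-3 (NCU08762, r = 0.999), a sterol reductase gene, NCU03258 (r = 0.998) and NCU05624 (r = 0.998). Those most like gh61-5 were NCU01938 (r = 0.995), the proteasome subunit gene rpn-10 (NCU02982, r = 0.995) and NCU09355 (r = 0.994). These values describe 6 libraries that fall into 3 genotypes, and many of the 8561 tested genes were available to match. Unmapped reads were 1.31% and 1.61% in set-2 H3G34R, 4.23% and 3.47% in set-2 ash1(Y888F), and 3.03% and 3.04% in H3G34R. A difference of culture or preparation that follows genotype cannot be told apart from genotype here. Likeness of shape did not mean likeness of size, since NCU03258 was at 180 ± 3.38 CPM in set-2 H3G34R, 162 ± 2.75 CPM in set-2 ash1(Y888F) and 137 ± 0.0760 CPM in H3G34R, a far smaller range than that of gh61-6. Of these, NCU05624 ranged more widely than gh61-6, at 46.0 ± 2.80, 17.0 ± 7.81 and 1.30 ± 0.482 CPM in the same order (SD, n = 2 each).

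The enzyme of gh61-13 is known to oxidise both the C1 and the C4 carbon. Its levels were 2.32 and 1.80 CPM in set-2 H3G34R, 11.0 and 3.86 CPM in set-2 ash1(Y888F), and 9.54 and 7.94 CPM in H3G34R. Both set-2 H3G34R libraries were below all others, while the N6266 and N6267 libraries of set-2 ash1(Y888F) lay on either side of the H3G34R libraries. In set-2 H3G34R it was below H3G34R, with a log2 difference of −2.07 (SE 0.494, edgeR adjusted p = 0.0101) and below set-2 ash1(Y888F), at −1.85 (SE 0.513, edgeR adjusted p = 0.0295). The comparison with H3G34R lost its call without set-2 H3G34R replicate 1 (adjusted p = 0.0527) or 2 (0.0733) or H3G34R replicate 1 (0.0515). The comparison with set-2 ash1(Y888F) was lost without set-2 H3G34R replicate 1 (0.111) or 2 (0.152), set-2 ash1(Y888F) replicate 1 (0.125), or H3G34R replicate 1 (0.0564) or 2 (0.0560), and with only the 4 libraries compared (0.0564). Over H3G34R the set-2 ash1(Y888F) value was −0.22 with a 95% interval of −1.26 to 0.82 (edgeR adjusted p = 0.689). Its sign rested on single strains, at −1.18 without N6266 (edgeR adjusted p = 0.0243) and 0.33 without N6267 (edgeR adjusted p = 0.342).

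The enzymes of gh61-4 and gh61-3 are known to oxidise the C4 carbon. For gh61-4 there were 1 and 1 sense reads in set-2 H3G34R and 0 and 1 in set-2 ash1(Y888F), against 25 and 17 in H3G34R. The H3G34R libraries stood at 2.41 and 1.63 CPM, whereas a count of 0, as in N6266, allows up to 0.407 CPM. From summed reads the ratio of set-2 H3G34R over H3G34R was 0.0527 (95% exact binomial interval 0.00618 to 0.203), and that of set-2 ash1(Y888F) over H3G34R was 0.0351 (0.000869 to 0.207), intervals that cover counting error only. The gene entered the fit through its H3G34R reads, which goes a long way to fixing its call as lower, so the adjusted p of edgeR's quasi-likelihood test (0.00254 and 0.00415) adds little to these reads. Between the set-2 genotypes, with 2 reads in set-2 H3G34R and 1 in set-2 ash1(Y888F), a difference was not detectable at this depth (edgeR adjusted p = 0.810).

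For gh61-3 the levels were 7.37 and 5.50 CPM in set-2 H3G34R, 13.6 and 21.1 CPM in set-2 ash1(Y888F), and 11.0 and 4.69 CPM in H3G34R. The set-2 ash1(Y888F) libraries were above the rest, and the H3G34R libraries lay on either side of those of set-2 H3G34R. In set-2 H3G34R it was the lower of the set-2 genotypes, with a log2 difference of −1.42 (SE 0.428, edgeR adjusted p = 0.0389), a call lost without set-2 H3G34R replicate 1 (0.115) or 2 (0.196) or without set-2 ash1(Y888F) replicate 2 (0.106). The set-2 ash1(Y888F) value over H3G34R, 1.14, missed the threshold in edgeR (adjusted p = 0.0565) and passed in DESeq2 (adjusted p = 0.0443). That difference also passed in edgeR without set-2 ash1(Y888F) replicate 1 (0.0289) or H3G34R replicate 1 (0.0218). Between set-2 H3G34R and H3G34R the value was −0.28 with a 95% interval of −1.32 to 0.76 (edgeR adjusted p = 0.600), and it turned to 0.46 without H3G34R replicate 1 (edgeR adjusted p = 0.386).

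For the remaining members no carbon is named here. The levels of gh61-2 were 4.14 and 2.81 CPM in set-2 H3G34R, 30.1 and 20.0 CPM in set-2 ash1(Y888F), and 9.16 and 6.89 CPM in H3G34R. The genotypes did not overlap, and H3G34R lay between the set-2 genotypes. In set-2 H3G34R gh61-2 was 7.17-fold lower than in set-2 ash1(Y888F), a log2 value of −2.84 (SE 0.315, edgeR adjusted p = 0.00168), the largest difference between the set-2 genotypes among the 8 genes. It was higher in set-2 ash1(Y888F) than in H3G34R by 1.64 (SE 0.285, edgeR adjusted p = 0.00362), and both of these calls held without any single library. It was lower in set-2 H3G34R than in H3G34R by −1.20 (SE 0.325, edgeR adjusted p = 0.0166), a call lost without set-2 H3G34R replicate 2 (−0.95, adjusted p = 0.101) or H3G34R replicate 1 (−0.98, adjusted p = 0.0927).

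For gh61-7 the levels were 1.72 and 0.898 CPM in set-2 H3G34R, 5.69 and 2.52 CPM in set-2 ash1(Y888F), and 2.02 and 0.957 CPM in H3G34R. The set-2 ash1(Y888F) libraries were above the others, from 8 to 42 reads per library over the 6. The differences were −1.64 for set-2 H3G34R over set-2 ash1(Y888F) (SE 0.574, edgeR adjusted p = 0.0624) and 1.47 for set-2 ash1(Y888F) over H3G34R (SE 0.555, edgeR adjusted p = 0.0623). Both were past the threshold when the N6267 library (set-2 ash1(Y888F) replicate 2) was dropped, at edgeR adjusted p = 0.0175 and 0.0193. Set-2 H3G34R differed from H3G34R by −0.17, with a 95% interval of −1.67 to 1.33 (edgeR adjusted p = 0.828).

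For gh61-1 the levels were 2.83 and 2.81 CPM in set-2 H3G34R, 1.491 and 1.485 CPM in set-2 ash1(Y888F), and 3.57 and 1.72 CPM in H3G34R. Both set-2 ash1(Y888F) libraries were below all others, but the strains of H3G34R differed 2.07-fold from each other. The value of set-2 H3G34R over set-2 ash1(Y888F) was 0.91 (95% interval −0.17 to 1.99, edgeR adjusted p = 0.154). Set-2 ash1(Y888F) differed from H3G34R by −0.82 (−1.90 to 0.25, edgeR adjusted p = 0.165) and set-2 H3G34R from H3G34R by 0.09 (−0.84 to 1.02, edgeR adjusted p = 0.850).

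**Figure D2:**
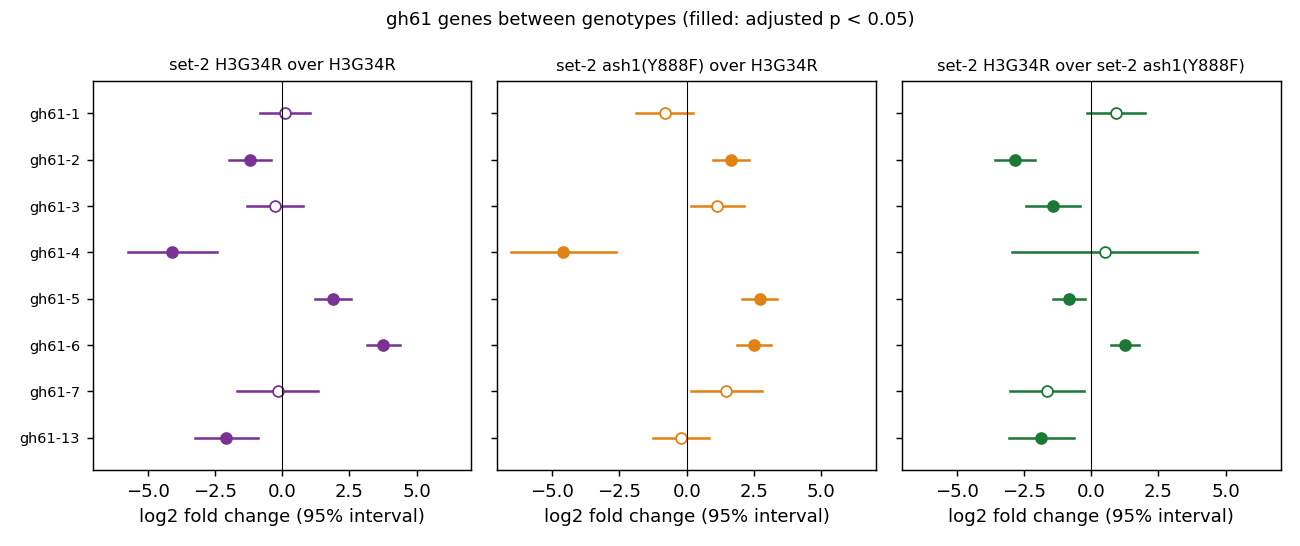
Log2 fold change of each gh61 gene with its 95% interval from edgeR's quasi-likelihood fit, in set-2 H3G34R over H3G34R, set-2 ash1(Y888F) over H3G34R and set-2 H3G34R over set-2 ash1(Y888F); filled points have an adjusted p below 0.05. The points for gh61-2 lie on opposite sides of 0 in the first comparisons, at −1.20 and 1.64, and the points of gh61-4, with 0 or 1 read per set-2 library, have wide intervals and depend on the fit's handling of counts near 0.

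In set-2 H3G34R against H3G34R, 5 of the 8 genes passed, 2 higher and 3 lower, beside 61.7% of all 8561 tested genes, 30.7% higher and 31.1% lower. In set-2 ash1(Y888F) against H3G34R, 4 passed, 3 higher and 1 lower, beside 51.8% of all genes, 26.3% higher and 25.5% lower. In set-2 H3G34R against set-2 ash1(Y888F), 5 passed, 1 higher and 4 lower, beside 38.1% of all genes, 18.2% higher and 19.9% lower. Without gh61-4, which entered through the H3G34R libraries only, 4 and 3 of 7 passed in the comparisons with H3G34R. The members' shares in the comparisons with H3G34R were thus near the background of these widely differing libraries. Groups did not overlap for 5, 7 and 7 of the 8 genes in the same order, beside 85.9%, 78.3% and 71.5% of all tested genes. The median log2 fold change of the 8 was −0.23, 1.30 and −1.12, beside −0.01, −0.00136 and 0.02 over all tested genes. Of the means, 4 of 8 genes were highest in set-2 ash1(Y888F), 2 in set-2 H3G34R and 2 in H3G34R. The comparisons share libraries with each other, so their values are not independent. Without set-2 H3G34R replicate 1, 1 member passed between the set-2 genotypes, and without its replicate 2, 2 did. With only the 4 libraries of those genotypes, or without set-2 ash1(Y888F) replicate 1 or either H3G34R replicate, 3 passed. Against H3G34R, 3 members passed in set-2 H3G34R without its replicate 2 or without H3G34R replicate 1.

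Strains of a genotype differed as well. In H3G34R the N5247 library was above the N5248 library for all 8 genes, beside 49.1% of all tested genes, with the widest gap in gh61-3 (2.34-fold, from 114 and 49 reads). The N6266 library of set-2 ash1(Y888F) was above the N6267 library for 5 of 8, and gh61-13 differed 2.84-fold, from 81 and 26 reads. In set-2 H3G34R library 1 was above library 2 for 6 of 8. As a measure of what other genes showed, the median gene with a mean of 10 to 300 reads differed 1.16-fold between the libraries of set-2 H3G34R, 1.23-fold in set-2 ash1(Y888F) and 1.17-fold in H3G34R, with a 90th percentile of 1.56-fold, 1.89-fold and 1.62-fold. The set-2 H3G34R libraries share their strain and may share a culture, so p-values measure only the spread between libraries, which for that genotype may be technical.

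Antisense reads over the 8 genes numbered 54 against 3347 sense reads, 1.59% of the reads on both strands, beside 3.42% over all genes. Most lay over gh61-2 and gh61-5, with 21 each. Over gh61-5 the set-2 H3G34R libraries held 15, the set-2 ash1(Y888F) libraries 6 and the H3G34R libraries 0, and over gh61-2 these were 3, 15 and 3. Counts of both strands together gave the same calls and directions as sense counts for every member in all 3 comparisons.

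Against wild type, whose libraries were not used here, the authors' deposited tables placed gh61-5 and gh61-6 higher and gh61-1 and gh61-2 lower in set-2 H3G34R. For set-2 ash1(Y888F) they placed gh61-5 and gh61-13 higher and gh61-2 lower, and for H3G34R gh61-4 and gh61-13 higher and gh61-1 and gh61-6 lower. In the authors' deposited table gh61-6 had a log2 fold change of 0.89 in set-2 H3G34R (SE 0.234, DESeq2 adjusted p = 4.51e-04), 0.64 in set-2 ash1(Y888F) (SE 0.401, DESeq2 adjusted p = 0.313) and −2.68 in H3G34R (SE 0.363, DESeq2 adjusted p = 5.83e-13). For gh61-4 the authors' deposited table gave 4.34 in H3G34R (SE 1.12, DESeq2 adjusted p = 2.17e-04), where its mean normalised signal over mutant and wild-type libraries was 12.2, while the mean was 0.742 in the set-2 H3G34R table and 0.526 in the set-2 ash1(Y888F) table. In the authors' deposited tables gh61-13 stood at −0.01 in set-2 H3G34R (DESeq2 adjusted p = 0.991), 1.76 in set-2 ash1(Y888F) (DESeq2 adjusted p = 0.0188) and 2.14 in H3G34R (DESeq2 adjusted p = 1.58e-04). The gene gh61-2 stood in the authors' deposited tables at −1.68 in set-2 H3G34R (DESeq2 adjusted p = 1.74e-04), −0.84 in set-2 ash1(Y888F) (DESeq2 adjusted p = 0.0423) and −0.43 in H3G34R (DESeq2 adjusted p = 0.278). So gh61-2 in set-2 ash1(Y888F) was below the wild type of its own table and above H3G34R in the direct comparison of sense reads. Its mean normalised signal was 80.8, 252 and 109 in the authors' deposited tables in that order, and whether the tables share their wild-type libraries is not given in the sources used here. The mean signal of cdt-1 (NCU00801), a cellodextrin transporter gene, was 2855, 125 and 2913 in the same order. Its log2 fold changes over wild type were −5.19, 0.04 and −4.43, though its mean levels here were 15.1, 18.9 and 22.4 CPM. The wild-type level of cdt-1 was thus far lower in the set-2 ash1(Y888F) table than in the others. By these values that table did not rest on the same set of wild-type libraries as the others. For these reasons fold changes from different deposited tables are not compared with each other. Counts of passing members were 4 of 8, 3 of 7 with an adjusted p, and 4 of 8 in the authors' deposited tables, beside 51.3%, 17.3% and 64.5% of all genes with an adjusted p.

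**Figure D3:**
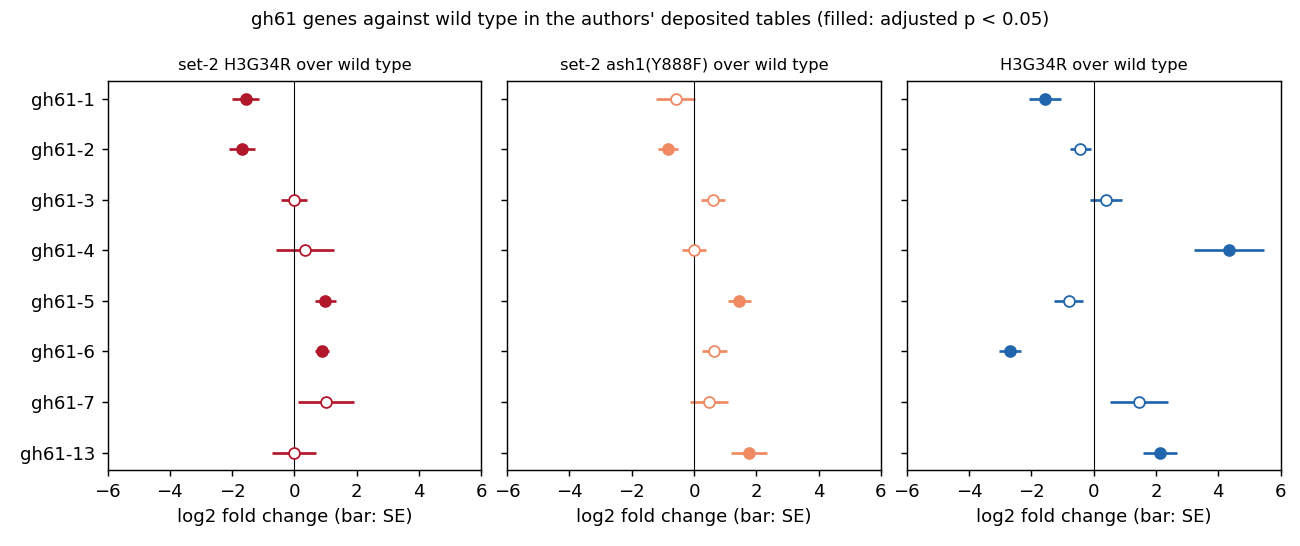
Log2 fold change over wild type with its standard error (bars) for each gh61 gene in the authors' deposited tables of set-2 H3G34R, set-2 ash1(Y888F) and H3G34R; filled points have an adjusted p below 0.05. In H3G34R gh61-4 sits at 4.34 and gh61-6 at −2.68.

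The NC12 table names 4 further gh61 genes, of which 2 passed the filter on low counts. The gene gh61-9 (NCU05969) had the levels 90.1 and 55.8 CPM in set-2 H3G34R, 103 and 185 CPM in set-2 ash1(Y888F), and 241 and 210 CPM in H3G34R. All libraries of the set-2 genotypes were below those of H3G34R. It was lower in set-2 H3G34R than in H3G34R by −1.63 (SE 0.321, edgeR adjusted p = 0.00459) and than in set-2 ash1(Y888F) by −0.98 (SE 0.319, edgeR adjusted p = 0.0497). Its call between the set-2 genotypes was lost under no filter on low counts (0.0530), with only the 4 libraries compared (0.0897), and without any single library except set-2 ash1(Y888F) replicate 1 (0.0603 to 0.241). Between set-2 ash1(Y888F) and H3G34R it missed the threshold (−0.65, edgeR adjusted p = 0.123), and passed when the N6267 library was dropped (−1.13, edgeR adjusted p = 0.0111). The gene gh61-8 (NCU03000) had 20, 5 and 19 sense reads in set-2 H3G34R, set-2 ash1(Y888F) and H3G34R and passed in no comparison, and gh61-10 and gh61-11 had at most 2 sense reads in any genotype. Antisense reads in the same order numbered 24, 11 and 5 over gh61-10 and 10, 3 and 19 over gh61-11.

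Of 15 genes for enzymes and transporters that act with these monooxygenases on plant cell walls, 13 were tested. In set-2 H3G34R against H3G34R, 2 were higher, 3 lower and 8 did not pass, beside 61.7% of all tested genes called, and the median log2 fold change was 0.45. In set-2 ash1(Y888F) against H3G34R, 2 were higher, 3 lower and 8 did not pass, beside 51.8%, with a median of −0.18. Between the set-2 genotypes 1 was higher in set-2 H3G34R and 12 did not pass, beside 38.1%, with a median of 0.42. The electron donor gene cdh-1 (NCU00206), for cellobiose dehydrogenase, was at 13.4 and 12.7 CPM in set-2 H3G34R and 13.3 and 9.65 CPM in set-2 ash1(Y888F), against 27.0 and 26.1 CPM in H3G34R. It was lower in both set-2 genotypes than in H3G34R, by −1.02 (SE 0.188, edgeR adjusted p = 0.00335) and −1.21 (SE 0.193, edgeR adjusted p = 0.00260), where gh61-5 and gh61-6 were higher. The endoglucanase gene gh5-1 (NCU00762) was lower too, at 1.72 and 3.03 CPM in set-2 H3G34R and 0.949 and 1.63 CPM in set-2 ash1(Y888F), against 11.8 and 11.0 CPM in H3G34R (edgeR adjusted p = 0.00116 and 8.20e-04).

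The cellobiohydrolase gene cbh-1 (NCU07340) was at 15.3 and 16.9 CPM in set-2 H3G34R, 4.61 and 5.94 CPM in set-2 ash1(Y888F), and 3.66 and 4.02 CPM in H3G34R. Like gh61-6 it was highest in set-2 H3G34R, by 2.07 over H3G34R (SE 0.216, edgeR adjusted p = 3.60e-04) and 1.61 over set-2 ash1(Y888F) (SE 0.218, edgeR adjusted p = 0.00295). The beta-glucosidase gene gh3-4 (NCU04952) was higher than in H3G34R by 2.16 in set-2 H3G34R (SE 0.427, edgeR adjusted p = 0.00467) and by 1.44 in set-2 ash1(Y888F) (SE 0.456, edgeR adjusted p = 0.0349). The xylanase genes passed on few reads, with gh10-1 (NCU05924) lower in both set-2 genotypes (edgeR adjusted p = 0.0253 and 0.0239) and gh11-1 (NCU02855) higher in set-2 ash1(Y888F) (edgeR adjusted p = 0.0366). Sense reads of gh10-1 were 11 and 4 in set-2 H3G34R and 4 and 5 in set-2 ash1(Y888F), against 29 and 21 in H3G34R. It entered the fit largely through the H3G34R libraries, which goes some way to fixing its calls as lower. The calls of gh10-1 did not pass in DESeq2 (adjusted p = 0.0845 and 0.0647) nor without set-2 H3G34R replicate 2 or either H3G34R replicate for set-2 H3G34R (0.0519 to 0.135), or without either replicate of either genotype for set-2 ash1(Y888F) (0.0505 to 0.118). Those of gh11-1 and, in set-2 ash1(Y888F), gh3-4 were lost with only the 4 libraries compared (0.0654 each). They were also lost without any single library except set-2 ash1(Y888F) replicate 2 for gh11-1 (0.0560 to 0.227) and replicate 1 for gh3-4 (0.0576 to 0.187).

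**Figure D4:**
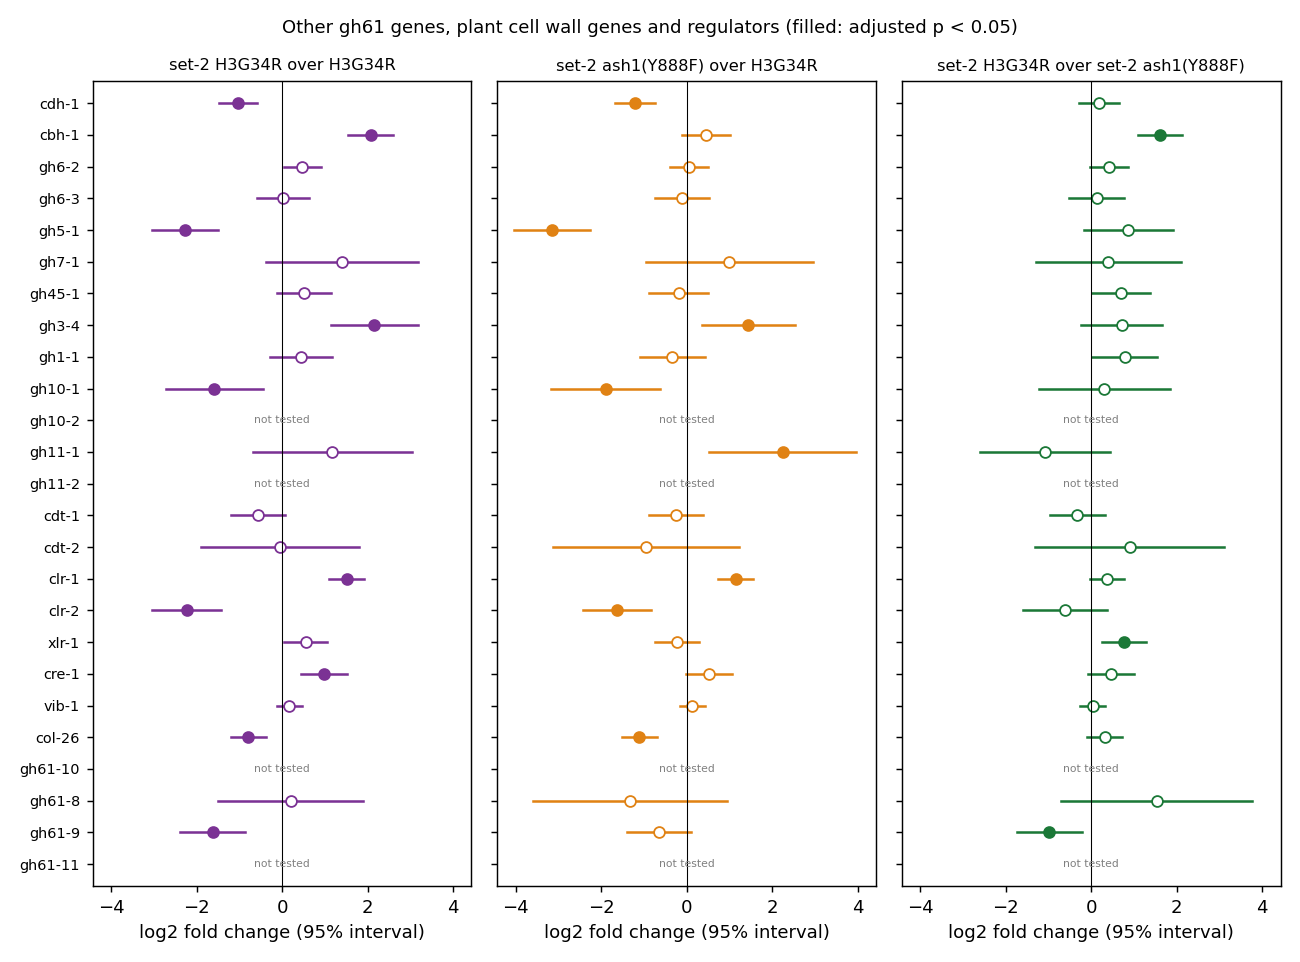
Log2 fold change with its 95% interval for 15 plant cell wall genes, 6 regulators and 4 further gh61 genes in the 3 comparisons, from edgeR's quasi-likelihood fit; filled points have an adjusted p below 0.05. The regulator genes clr-1 and clr-2 lie on opposite sides of 0 in both comparisons with H3G34R, at 1.51 and −2.23 and at 1.15 and −1.62.

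Among 6 regulator genes, 4 passed in set-2 H3G34R against H3G34R (2 higher, 2 lower), 3 in set-2 ash1(Y888F) against H3G34R (1 higher, 2 lower) and 1 between the set-2 genotypes (higher in set-2 H3G34R), beside the same 61.7%, 51.8% and 38.1% of all tested genes. The gene clr-1 (NCU07705) was at 79.7 and 93.3 CPM in set-2 H3G34R and 58.6 and 75.9 CPM in set-2 ash1(Y888F), against 27.7 and 32.9 CPM in H3G34R. The second activator gene, clr-2 (NCU08042), was at 1.21 and 0.898 CPM in set-2 H3G34R and 1.90 and 1.34 CPM in set-2 ash1(Y888F), against 5.49 and 4.59 CPM in H3G34R. Thus clr-1 was higher in both set-2 genotypes, by 1.51 (SE 0.171, edgeR adjusted p = 4.87e-04) and 1.15 (SE 0.171, edgeR adjusted p = 0.00200), and clr-2 was lower, by −2.23 (SE 0.337, edgeR adjusted p = 0.00147) and −1.62 (SE 0.332, edgeR adjusted p = 0.00682).

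The repressor gene cre-1 (NCU08807) was at 429 and 644 CPM in set-2 H3G34R, 376 and 399 CPM in set-2 ash1(Y888F), and 230 and 311 CPM in H3G34R, and passed in set-2 H3G34R against H3G34R only (0.99, edgeR adjusted p = 0.00840). That call was lost without set-2 H3G34R replicate 2 (0.0514) or H3G34R replicate 1 (0.0634). The starch response gene col-26 (NCU07788) was lower in both set-2 genotypes than in H3G34R, by −0.79 (edgeR adjusted p = 0.00664; 0.0550 without set-2 H3G34R replicate 1) and −1.11 (edgeR adjusted p = 0.00235). The xylanase regulator gene xlr-1 (NCU06971) was higher in set-2 H3G34R than in set-2 ash1(Y888F) by 0.78 (edgeR adjusted p = 0.0303), a call lost without any single library except set-2 ash1(Y888F) replicate 2 (0.0503 to 0.150). Its value of 0.55 in set-2 H3G34R against H3G34R missed the threshold (edgeR adjusted p = 0.0566) but passed with only the 4 libraries compared (0.0265). The gene vib-1 (NCU03725) passed in no comparison, with log2 values of 0.16, 0.13 and 0.03.

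Genes beside the members in the NC12 annotation were read out of the same fit. Of 16 immediate neighbours, 13 were tested. In set-2 H3G34R against H3G34R, 6 were higher and 4 lower, beside 61.7% of all tested genes called. In set-2 ash1(Y888F) against H3G34R, 4 were higher and 3 lower, beside 51.8%. Between the set-2 genotypes 2 were higher and 2 lower in set-2 H3G34R, beside 38.1%. NCU03329, beside gh61-6, was at 72.3 and 69.2 CPM in set-2 H3G34R and 54.9 and 66.1 CPM in set-2 ash1(Y888F), against 11.4 and 11.8 CPM in H3G34R, and was higher in both (2.61, edgeR adjusted p = 4.67e-05, and 2.38, edgeR adjusted p = 6.92e-05). NCU01049, beside gh61-4, had 0 and 1 reads in set-2 H3G34R and 5 and 0 in set-2 ash1(Y888F), against 39 and 34 in H3G34R, and like gh61-4 it entered the fit through the H3G34R libraries only. Its adjusted p in edgeR (0.00242 and 0.0111) therefore adds little to these reads, and that for set-2 ash1(Y888F) was 0.0562 without H3G34R replicate 1. On the other side of gh61-4, NCU01051 was higher in both, by 1.12 (edgeR adjusted p = 0.0354) and 1.45 (edgeR adjusted p = 0.0167), but in set-2 H3G34R it did not pass in DESeq2 (adjusted p = 0.0940) nor without either set-2 H3G34R replicate (0.101 and 0.122) or H3G34R replicate 2 (0.180). NCU01051 lost its call in set-2 ash1(Y888F) without set-2 ash1(Y888F) replicate 1 (0.0634) or H3G34R replicate 2 (0.0898).

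Both neighbours of gh61-13, NCU07899 and NCU07897, were lower with it in set-2 H3G34R than in H3G34R (−1.50, edgeR adjusted p = 0.00101, and −1.43, edgeR adjusted p = 0.00144). Beside gh61-3, whose own value was −0.28, NCU02915 was at 43.8 and 38.4 CPM in set-2 H3G34R and 22.2 and 30.4 CPM in set-2 ash1(Y888F), against 1.83 and 0.861 CPM in H3G34R (4.92, edgeR adjusted p = 8.70e-05, and 4.28, edgeR adjusted p = 1.82e-04).

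**Figure D5:**
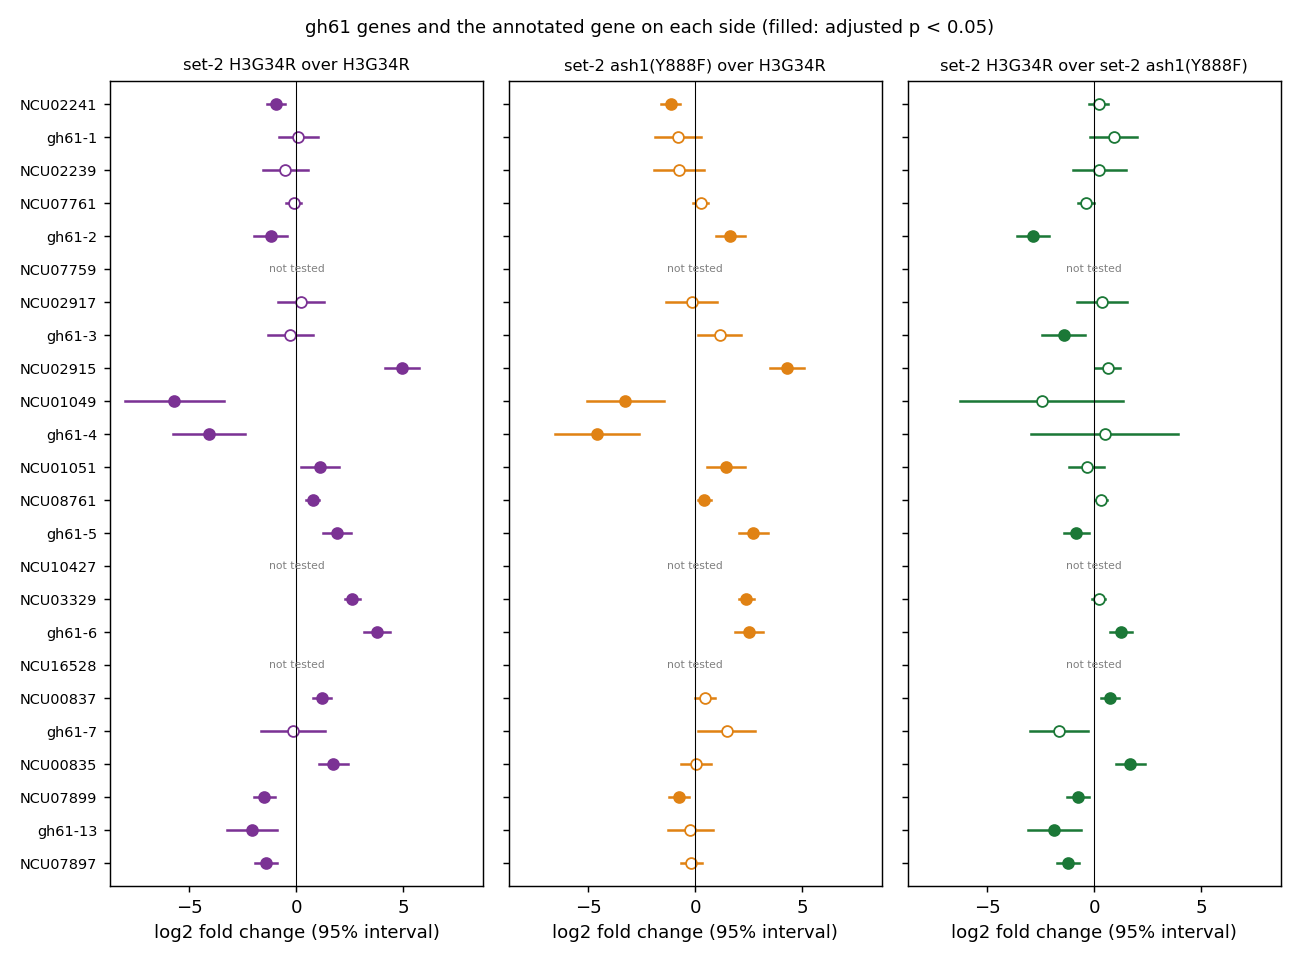
Log2 fold change with its 95% interval for each gh61 gene and the annotated gene on either side, from edgeR's quasi-likelihood fit in the 3 comparisons; filled points have an adjusted p below 0.05. NCU01049 and gh61-4, with 0 to 5 reads per set-2 library, lie far below 0 in both comparisons with H3G34R, and NCU03329 and gh61-6 far above it.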

How the data were processed

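The authors deposited raw read counts per gene and strand for 6 libraries, produced by STAR 2.6.0 according to the submitters' processing notes; the sources used here name no genome build or annotation. Reads not assigned to the sense strand of a single gene (15.0% to 22.9% per library) were left out of library sizes. They include unmapped reads and reads that map to several places. The strand with more reads was taken as sense. The authors' deposited tables against wild type (DESeq2 1.18.1, from the same notes) have no header: from the values, they hold a mean normalised signal, a log2 fold change and its error, a test score (fold change over error), and raw and adjusted p-values. The fold change was negative in each of the authors' deposited tables for every gene with a mean of at least 10 and no mutant reads (4, 3 and 3 genes), so it runs mutant over wild type. These tables appear to count both strands, unlike the sense counts used here. In the set-2 H3G34R table the xylanase gene gh10-2 (NCU08189) had a mean of 44.0 and a log2 fold change of 0.66. The set-2 H3G34R libraries held 8 sense and 107 antisense reads of that gene.

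Sense counts of 8561 genes were fitted with edgeR 4.0.16 in R 4.3.3 (glmQLFit, glmQLFTest, TMM, filterByExpr), 6 libraries together, no covariates, two-sided, Benjamini-Hochberg threshold 0.05. The fit was tested on simulated data with few changed genes, raised and lowered in equal number. That setting differs from these data, where a large share of genes was called. Each library was 1 replicate (n = 2). Alternatives were DESeq2 1.42.0, RLE size factors, no filter, both strands, only the libraries compared, and leaving out each library. A count of 0, taken as at most 3 reads, allows 0.287 to 0.446 CPM. Levels carry no length scaling and are not compared between genes. Symbols and neighbours came from the NC12 table, which matched all 21 partner and regulator genes. Named were all members, further gh61 genes, partners past the test, regulators and the 3 genes most alike for the 2 members with most reads. Neighbours, cdt-1, gh10-2 and single conidial genes were chosen after their values were seen. Members and lists were chosen with earlier results of these data known.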

Additional observations from a re-analysis of the deposited data

How the results depend on the processing

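Of 12 calls of gh61 genes over the 3 comparisons, leaving out gh61-4, which entered the fit through the H3G34R libraries only, 6 held under every alternative run, namely gh61-5 and gh61-6 in both set-2 genotypes over H3G34R, gh61-2 in set-2 ash1(Y888F) over H3G34R and gh61-2 in set-2 H3G34R over set-2 ash1(Y888F). DESeq2, other size factors, no filter and both strands together changed 1 member call, adding gh61-3 in set-2 ash1(Y888F) over H3G34R. With only the 4 libraries compared, 3 members in place of 5 passed in set-2 H3G34R over set-2 ash1(Y888F), a fit with fewer libraries; gh61-4 could not be fitted there, as it did not pass the filter. Leaving out each library gave 3 to 5 passing members in set-2 H3G34R over H3G34R, 4 to 6 in set-2 ash1(Y888F) over H3G34R and 1 to 5 in set-2 H3G34R over set-2 ash1(Y888F). Over all genes it gave 3802 to 5838, 2740 to 4561 and 1373 to 3749 calls in the same order, against 5286, 4435 and 3264 with all libraries; the lowest counts came without set-2 H3G34R replicate 2 for the last and without H3G34R replicate 1 for the one before it, at 2740.

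Signs turned only for values that had not passed. In set-2 H3G34R over H3G34R, leaving out a library gave −0.34 to 0.71 for gh61-1, −0.77 to 0.46 for gh61-3 and −0.74 to 0.46 for gh61-7. In set-2 ash1(Y888F) over H3G34R it gave −1.18 to 0.33 for gh61-13 and −0.51 to 0.44 for NCU00835. In set-2 H3G34R over set-2 ash1(Y888F) it gave −0.44 to 3.17 for gh61-4, −0.025 to 0.44 for cdh-1, −0.51 to 0.78 for gh10-1, −0.068 to 0.14 for vib-1 and −4.72 to 2.31 for NCU01049. A library left alone in its genotype was assumed to vary like the others. No paired analysis was possible because the labels give no library numbers that genotypes share. Levels per gene length were not computed, since no exon or coding lengths were used here. The cause of the lost, gained and turned calls was not tested. For gh61-7, with 17 and 8 reads in set-2 H3G34R and 21 and 10 in H3G34R, counting error alone gave a ratio of 0.893 with a 95% interval of 0.505 to 1.56, so a difference within it was not detectable at this depth.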
